A study of Homo sapiens with 4 samples.

Results

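Replication genes were read from RNA sequencing of Hep-G2, an established line from a human liver tumour. The cells carried either the scramble control shRNA (labelled SHC002) or an shRNA against FTO (labelled TRCN0000246247), all at passage 21. The 52 genes are a list by name of the DNA replication machinery and its S phase regulators. The list sets no threshold on measured values, but it was drawn up with earlier results of these data known. Of its genes 51 were matched to an identifier among the 62893 in the count tables. UHRF1, which couples maintenance of DNA methylation to replication, was not matched and is not analysed here. FTO is a demethylase that acts on N6-methyladenosine in RNA, and 1 hairpin against it was compared with 1 control hairpin. Whether each line was a clone or a pool is not given in the sources used here.

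DNA replication starts when the origin recognition complex, with CDC6 and CDT1, loads rings of MCM2 to MCM7 onto DNA, a step called licensing that geminin blocks once S phase has begun. Kinases then recruit CDC45 and the GINS complex to turn the ring into an active helicase, after which primase, the replicative polymerases, the PCNA clamp and its loader copy both strands. Most of these genes are known targets of E2F transcription factors, which the RB protein holds in check until the G1/S transition. In a dividing hepatoma line they therefore mark the proliferating state.

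Each group held 2 count tables, called runs here, with 20047409 to 20706611 gene-assigned reads. A chi-square test found no difference between the pair of a group in excess of sampling noise. Chi-square per degree of freedom was 1.01 for the scramble runs (chi-square test, p = 0.123) and 1.01 for the shFTO runs (p = 0.22), but 128 to 131 between groups. They were therefore pooled and counted as 1 sample, so each ratio sets 1 sample against 1 sample without a replicate check, and its 95% interval in brackets (exact Clopper-Pearson on reads) covers counting error only. FTO itself was read 594 and 550 times in scramble against 116 and 128 times in shFTO, 5.32-fold lower after scaling (4.63 to 6.13). All 9 hepatocyte markers were detected and all were at least 1.2-fold lower in shFTO (24.7% of all tested genes). Their summed level ran from 40051 to 40114 CPM in scramble and from 17101 to 17168 in shFTO. Of the markers of other cell types, 11 fibroblast genes summed to 55.2 to 56.9 CPM in scramble and 39.8 to 44.0 in shFTO. Most of this was ACTA2 (32.5 CPM in scramble and 34.8 in shFTO) and PDGFRB (23.3 and 3.62), and 5 of the 11 had no read. Summed levels of 12 endothelial genes were 6.78 to 7.61 and 7.02 to 7.34 CPM. Those of 12 markers of other epithelial or neural lines were 9.74 to 10.4 and 8.25 to 9.30. The 12 leukocyte genes summed to 3007 to 3014 and 235 to 236 CPM, nearly all of it LYZ. Single markers went against these sums, such as COL1A1 with 2 and 3 reads in scramble and 61 and 74 in shFTO. By the 1.2-fold rule defined below, 1 of 3 tested fibroblast genes was higher (all genes 23.6%) and 1 lower (all genes 24.7%). The same counts were 1 and 1 of 3 endothelial, 1 and 4 of 5 leukocyte, and 0 and 1 of 1 tested in the last list. PTPRC, PECAM1, COL3A1, DCN, KRT5 and SFTPC had no read in any run. The part of these shifts in the results below was not tested, and more cells in S phase cannot be told apart from more RNA of these genes per cell in bulk samples.

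Promoter sequence was not used to list the members. Most of them are known E2F targets, however, so a high share of E2F-type words could be foreseen from the list itself. Windows from 250 bases before to 50 after a RefSeq start (GRCh38.p14, another build than that of the counts) were available for 44 of the 51 matched members and were searched on both strands for 4 E2F-type words of 8 bases, TTTCGCGC, TTTGGCGC, TTTCCCGC and TTTGCCGC, whose matches may overlap. At least 1 word lay in 23 of the 44 members (52.3%), against 6.58% of 9527 tested protein-coding genes and 3.31% of all 35116 windows. A match is a description of the letters and no evidence of binding. The windows below show MCM2, POLE and E2F2, the members with the highest ratios among those with a window. MCM6 is added as the member with the most words, and RFC3 as the member with the largest decrease. They lie at chr3:127598161-127598460 (plus strand), chr12:132687293-132687592 (minus), chr1:23531184-23531483 (minus), chr2:135876394-135876693 (minus) and chr13:33817899-33818198 (plus), and are printed in the direction of the gene with E2F-type words in capitals.
MCM2: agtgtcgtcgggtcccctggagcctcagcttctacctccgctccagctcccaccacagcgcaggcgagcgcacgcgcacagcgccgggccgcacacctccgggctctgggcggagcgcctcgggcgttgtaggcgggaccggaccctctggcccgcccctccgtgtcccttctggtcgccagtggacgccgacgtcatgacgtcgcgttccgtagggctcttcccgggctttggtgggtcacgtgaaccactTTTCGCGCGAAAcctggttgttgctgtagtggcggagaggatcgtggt
POLE: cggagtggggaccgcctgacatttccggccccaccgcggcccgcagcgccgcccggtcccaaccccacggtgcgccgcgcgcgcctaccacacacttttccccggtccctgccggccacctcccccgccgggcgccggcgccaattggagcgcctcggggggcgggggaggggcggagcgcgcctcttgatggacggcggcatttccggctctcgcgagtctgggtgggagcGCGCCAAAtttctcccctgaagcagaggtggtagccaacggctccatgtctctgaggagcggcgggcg
E2F2: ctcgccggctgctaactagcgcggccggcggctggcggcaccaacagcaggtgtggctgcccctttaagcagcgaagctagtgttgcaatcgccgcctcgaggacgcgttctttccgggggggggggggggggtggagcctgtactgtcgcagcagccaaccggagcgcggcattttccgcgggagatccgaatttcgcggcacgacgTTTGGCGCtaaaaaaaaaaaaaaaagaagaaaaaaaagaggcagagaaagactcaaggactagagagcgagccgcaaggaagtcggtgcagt
MCM6: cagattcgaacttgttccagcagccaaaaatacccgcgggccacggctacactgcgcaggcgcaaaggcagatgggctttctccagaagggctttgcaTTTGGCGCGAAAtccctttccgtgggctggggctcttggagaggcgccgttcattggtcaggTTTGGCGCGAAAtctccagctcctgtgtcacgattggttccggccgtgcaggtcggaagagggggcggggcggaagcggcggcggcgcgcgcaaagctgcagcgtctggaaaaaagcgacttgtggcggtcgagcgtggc
RFC3: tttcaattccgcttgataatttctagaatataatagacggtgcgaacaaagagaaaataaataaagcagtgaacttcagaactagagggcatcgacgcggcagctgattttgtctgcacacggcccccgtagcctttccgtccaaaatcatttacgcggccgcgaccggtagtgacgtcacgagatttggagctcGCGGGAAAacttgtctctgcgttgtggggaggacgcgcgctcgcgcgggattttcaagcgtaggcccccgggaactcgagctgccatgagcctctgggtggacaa
In MCM2 a sense and an antisense word overlap just after the start, and MCM6 holds 2 such overlapping pairs upstream. RFC3, which was lower in shFTO, also holds a word.

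Levels below are in CPM, reads relative to the library total after TMM scaling, edgeR's default, which trims extreme genes. Replication genes were modestly higher in shFTO as a set, with few large ratios. By the rule used here, a ratio of at least 1.2-fold with a counting interval that leaves out 1, 19 of 51 members (37.3%) were higher, against 23.6% of the 13767 tested genes, and 3 were lower, against 24.7%. At 1.1-fold 33 members were higher (all genes 31.5%) and 6 lower (31.8%), and at 1.5-fold 2 were higher (all genes 10.4%) and 1 lower (12.7%). The median log2 ratio was 0.23 over the members and 0.01 over all tested genes, and 41 of 51 members lay above the latter. Both shFTO runs lay above both scramble runs for 38 members (all genes 41.4%) and below both for 7 (all genes 40.2%). In the quasi-likelihood fit of edgeR, after Benjamini-Hochberg adjustment, 35 members were higher (all genes 33.2%), 6 lower (33.4%) and 10 did not pass, a test that compares these libraries and not the conditions. Of the unscaled reads, all members together held 0.428% and 0.427% in scramble against 0.565% and 0.563% in shFTO. After TMM scaling their summed level was 4536.9 CPM in scramble and 5330.5 in shFTO, a smaller difference. The counts depend on the scaling. Plain library size moves every log2 ratio up by 0.17, and then 36 members were at least 1.2-fold higher (all genes 37.9%) and 1 lower (16.1%), with 48.7% of all genes called higher by edgeR and 22.1% lower. Of the 3 lower members RFC3 alone then passed 1.2-fold.

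**Figure D1:**
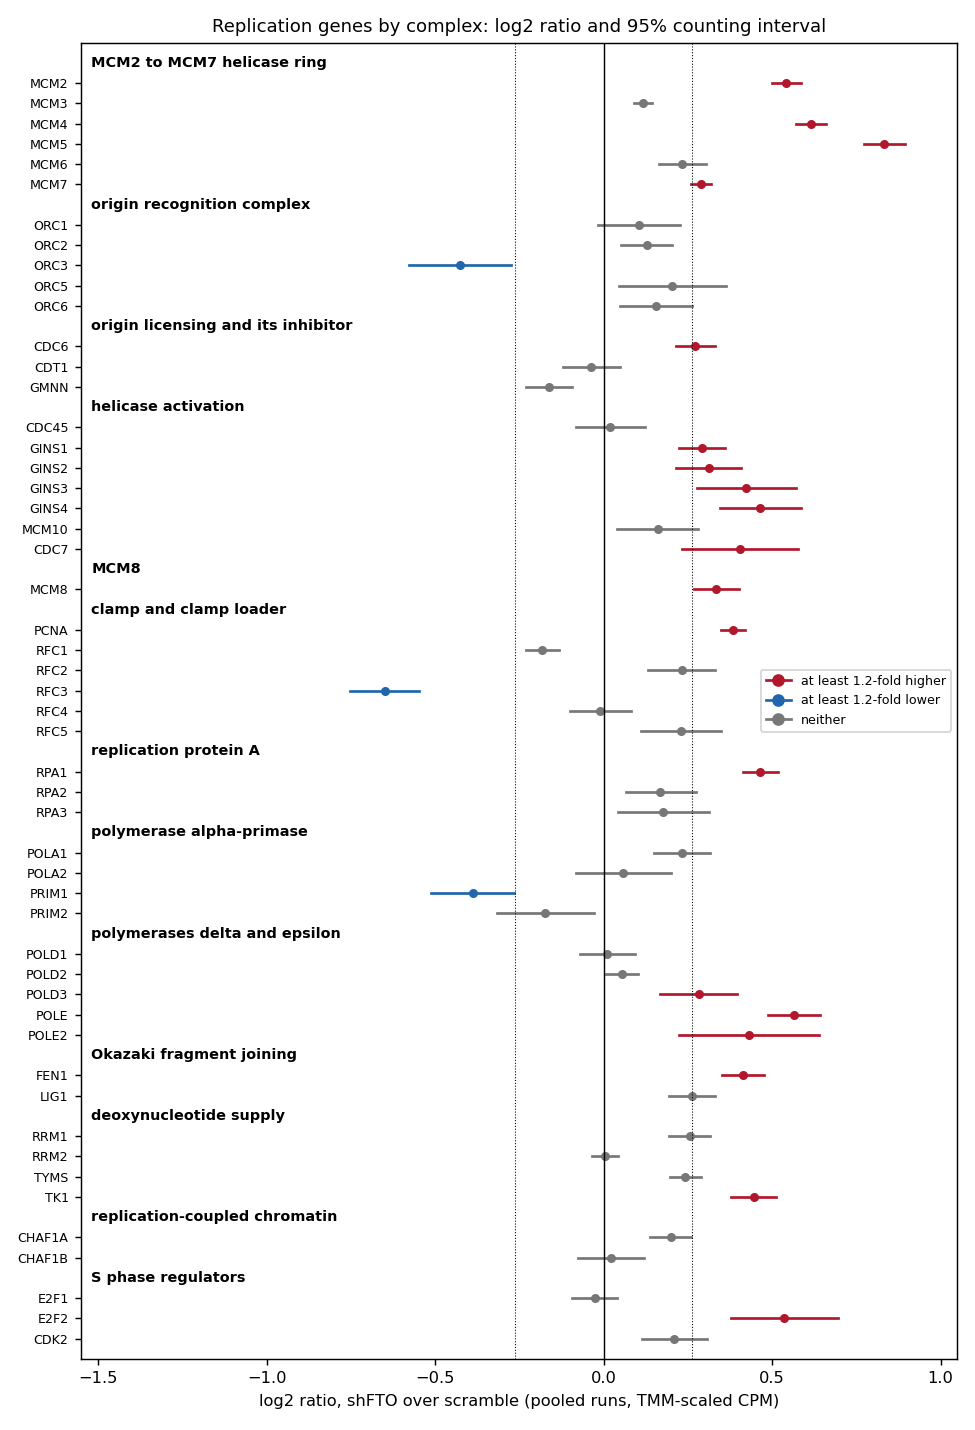
Log2 ratio of shFTO over scramble for the 51 matched members, grouped by complex, from pooled TMM-scaled runs. Points are ratios, bars are exact 95% counting intervals, and dotted lines mark 1.2-fold, with 19 members past it in red and 3 in blue. MCM5 lies furthest to the right and RFC3 furthest to the left.

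The helicase ring held the highest ratios, and all 6 subunit genes were above scramble. MCM5 stood at 86.3 and 85.0 CPM in scramble and at 152.7 and 152.2 in shFTO, 1.78-fold higher (1.71 to 1.86), at percentile 93.2 of all tested genes. MCM4 went from 163.6 and 160.5 CPM to 249.3 and 247.1, 1.53-fold higher (1.48 to 1.58). MCM2 went from 183.2 and 185.9 CPM to 268.9 and 268.8, 1.46-fold higher (1.41 to 1.5005). In all 3 the groups were far apart and the runs of a group close together. The other subunits differed less. MCM7 was 1.22-fold higher (1.196 to 1.246), MCM6 1.18-fold (1.12 to 1.24) and MCM3 1.09-fold (1.07 to 1.105), so the intervals of MCM5, MCM4 and MCM3 do not overlap each other.

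The subunits join the ring in equal number, but their transcripts were not equal. Per kilobase of the principal GENCODE transcript, the scramble levels ran from 175 CPM for MCM3 and 141 for MCM7 through 51.0 for MCM2, 38.7 for MCM4 and 24.2 for MCM5 to 20.04 for MCM6. The shFTO levels kept this order, at 189, 173, 74.2, 59.3, 43.1 and 23.6 CPM per kilobase. The most abundant subunit stood 8.71-fold above the least abundant in scramble and 8.03-fold in shFTO. MCM5 and MCM6, neighbours at the low end in scramble, were further apart in shFTO.

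**Figure D2:**
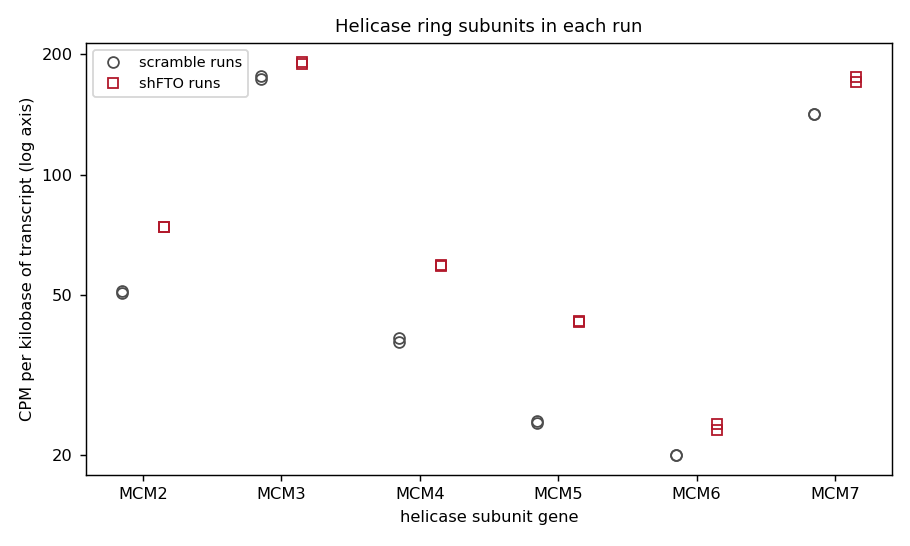
CPM per kilobase of transcript on a log axis for each of the 6 helicase ring genes, with circles for the 2 scramble runs and squares for the 2 shFTO runs. MCM3 and MCM7 are highest in both groups, and the gap between circles and squares is widest for MCM5, from 24.2 to 43.1.

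The genes that load the ring had lower median log2 ratios than the ring, 0.13 for origin recognition and -0.04 for licensing against 0.42. Single genes overlapped, as CDC6 lay above MCM6 and MCM3. None of the 5 origin recognition members was at least 1.2-fold higher (all genes 23.6%) and 1 was lower (all genes 24.7%). ORC2 was 1.09-fold higher (1.04 to 1.15), ORC5 1.15-fold (1.03 to 1.29) and ORC6 1.11-fold (1.03 to 1.1997). The interval of ORC1, the largest subunit and the one known to cycle, spanned no difference (1.07-fold, 0.988 to 1.17). ORC3, a core subunit, was the exception, with 20.2 and 20.2 CPM in scramble and 15.1 and 14.9 in shFTO, 1.34-fold lower (1.21 to 1.49). Among the licensing factors, CDC6, an ATPase that loads the ring with ORC, was 1.21-fold higher (1.16 to 1.26), from 107 and 109.5 CPM to 132 and 129.6. Its partner CDT1 had a ratio of 0.975 (0.920 to 1.03). GMNN, which encodes geminin, the inhibitor of CDT1, stood at 92.6 and 90.4 CPM in scramble and at 79.6 and 84.0 in shFTO, 1.12-fold lower (1.07 to 1.17), although with plain library size its log2 ratio was 0.01 and that of CDT1 0.13.

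Genes that switch the loaded helicase on were mostly higher, 5 of 7 by at least 1.2-fold (all genes 23.6%). All 4 GINS genes, whose products form one complex on the helicase, were among them. GINS4 went from 24.2 and 24.1 CPM to 34.2 and 32.6, 1.38-fold higher (1.27 to 1.5005), and GINS3 from 17.5 and 15.7 to 22.4 and 22.1, 1.34-fold higher (1.21 to 1.48). GINS2 was 1.24-fold higher (1.16 to 1.33) and GINS1 1.22-fold (1.17 to 1.28), so the 4 intervals overlap. CDC7, the kinase that phosphorylates the ring, was 1.32-fold higher (1.18 to 1.49) at a low level, with 228 and 237 reads against 329 and 369. CDC45, the third part of the active helicase, did not follow. Its scramble runs stood at 37.2 and 37.8 CPM and its shFTO runs at 40.2 and 35.8, on both sides of scramble. MCM10, a scaffold of helicase activation, was 1.12-fold higher (1.03 to 1.21). MCM8, a relative of the ring subunits that works in recombination repair, was 1.26-fold higher (1.204 to 1.32), from 77.4 and 81.8 CPM to 102 and 98.7.

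The sliding clamp and its loader parted. PCNA, which tethers polymerases to DNA, stood at 287 and 284 CPM in scramble and at 373 and 372.5 in shFTO, 1.30-fold higher (1.27 to 1.34), and per kilobase it was the most abundant member in both groups (210.2 and 274). The 5 subunits of its loader, replication factor C, went both ways. RFC2 was 1.17-fold higher (1.096 to 1.26) and RFC5 1.17-fold (1.08 to 1.27), and RFC4 had a ratio of 0.994 (0.933 to 1.06). RFC1, the large subunit, was 1.13-fold lower (1.097 to 1.17), but with plain library size its log2 ratio moved from -0.18 to -0.01. RFC3 had the lowest ratio of all members, from 49.3 and 47.3 CPM to 30.4 and 31.2, 1.57-fold lower (1.46 to 1.68), at percentile 11.7 of all tested genes. Both shFTO runs of RFC3 were well below both scramble runs.

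Single-strand binding and primer synthesis also differed between subunits. RPA1, the large subunit of replication protein A, went from 129.5 and 128 CPM to 177 and 179, 1.38-fold higher (1.33 to 1.43), while RPA2 was 1.12-fold higher (1.046 to 1.21) and RPA3 1.13-fold (1.03 to 1.24). The primase catalytic subunit gene PRIM1 went from 31.8 and 29.6 CPM to 23.6 and 23.3, 1.31-fold lower (1.202 to 1.42). Its partner PRIM2 was 1.13-fold lower (1.02 to 1.246), a value that is uncertain because copies of part of this gene exist in the genome. The polymerase alpha subunits that work with primase were not lower. POLA1, the catalytic subunit, was 1.17-fold higher (1.11 to 1.24), and the interval of POLA2 spanned no difference (1.04-fold, 0.944 to 1.15).

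The catalytic subunits of the leading and lagging strand polymerases differed in ratio. POLE, the catalytic subunit of polymerase epsilon, went from 59.6 and 55.9 CPM to 84.6 and 86.1, 1.48-fold higher (1.40 to 1.56). Its partner POLE2 was 1.35-fold higher (1.17 to 1.56) on few reads, 152 and 167 against 235 and 253. POLD1, the catalytic subunit of polymerase delta, had a ratio of 1.01 (0.952 to 1.07), an interval clear of that of POLE. POLE4, a small epsilon subunit outside the 52 and named after its value was seen, had a ratio of 1.049 (0.995 to 1.11), which overlaps that of POLD1. POLD2 had a ratio of 1.04 (1.005 to 1.07) and did not pass edgeR's test, and POLD3 was 1.22-fold higher (1.12 to 1.32). The enzymes that finish Okazaki fragments were both higher. FEN1, the flap endonuclease, went from 93.6 and 90.9 CPM to 123 and 122.6, 1.33-fold higher (1.28 to 1.39), and LIG1, the ligase, was 1.1997-fold higher (1.14 to 1.26), just short of the 1.2-fold rule, which CDC6 just passed.

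Among enzymes of deoxynucleotide supply, TK1, thymidine kinase of the salvage route, went from 81.3 and 77.9 CPM to 110 and 107, 1.36-fold higher (1.30 to 1.43). TYMS, which makes thymidylate from deoxyuridylate, was 1.18-fold higher (1.15 to 1.22), with 39.15% of its exon bases shared with the opposite-strand gene ENOSF1. The 2 subunits of ribonucleotide reductase differed, RRM1 being 1.19-fold higher (1.14 to 1.24) and RRM2, the regulated subunit, staying at 251.3 and 251.1 CPM in scramble and 252 and 251.6 in shFTO, a ratio of 1.003 (0.976 to 1.03). The chromatin assembly factor genes CHAF1A and CHAF1B, whose products place histones on new DNA, had ratios of 1.15 (1.101 to 1.197) and 1.01 (0.948 to 1.09).

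Of the regulators, E2F2 and not E2F1 was higher. E2F1 stood at 86.3 and 90.0 CPM in scramble and at 88.5 and 84.7 in shFTO, a ratio of 0.982 (0.937 to 1.03) with overlapping runs, while E2F2, a second activating E2F, went from 14.2 and 13.3 CPM to 19.9 and 19.9, 1.45-fold higher (1.30 to 1.62). The intervals of the 2 genes do not overlap. CDK2, the kinase that drives S phase with cyclins E and A, was 1.16-fold higher (1.08 to 1.24).

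**Figure D3:**
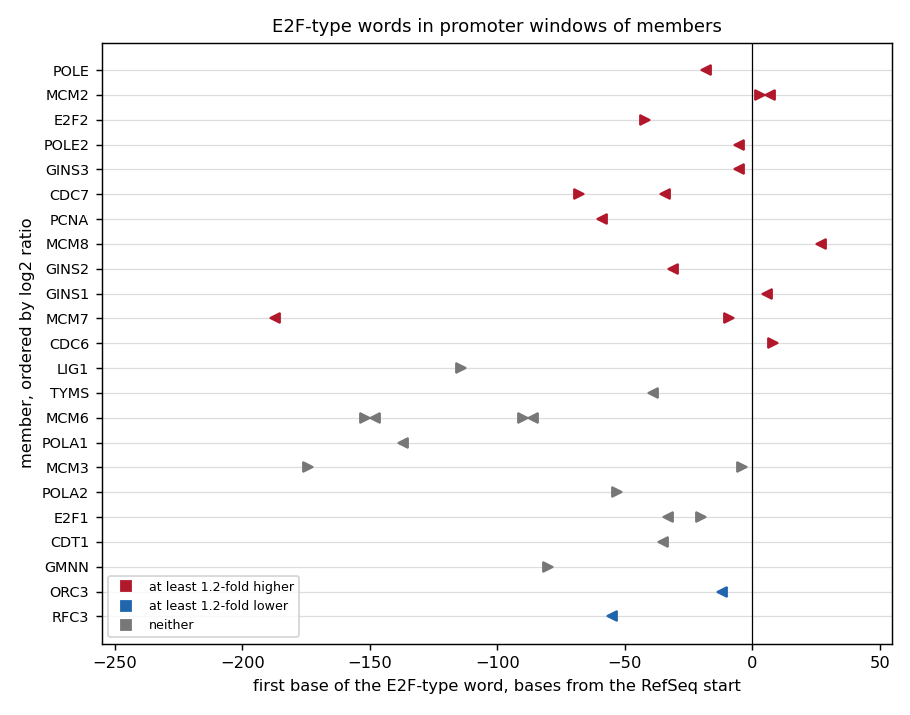
First base of each E2F-type word relative to the RefSeq start (x axis, in bases) in the 23 members that hold one, ordered from the highest to the lowest log2 ratio. Triangles point right for sense and left for antisense words, and colours give the 1.2-fold rule. Of the 15 higher members with a window 12 hold a word, as do 9 of 26 past neither side, and the 2 lower members that hold one are at the bottom.

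Set beside the promoter words, 12 of the 15 members past 1.2-fold higher that had a window held a word (80%), as did 9 of 26 past neither side (34.6%) and 2 of 3 past 1.2-fold lower, RFC3 and ORC3. The share was 6.58% over tested protein-coding genes, for which no split by ratio is given here. Members past neither side included MCM6 with 4 words, MCM3 with 2 and LIG1, just short of the rule, with 1. A link between words and ratios was not tested. FEN1, RPA1 and TK1 were the higher members with a window and no word. MCM5, MCM4, GINS4 and POLD3 had no window. In the same windows a word was held by 9 of 34 other replication genes (26.5%), 3 of 22 genes of E2F and RB control (13.6%) and 2 of 24 mitosis genes (8.33%). These shares are descriptions, and a high share among the members could be foreseen because most are known E2F targets.

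Replication genes outside the 52 were fewer on the lower side than genes at large and not far from them on the higher side. Of 42 such genes 13 were at least 1.2-fold higher (31.0%, all genes 23.6%) and 1 lower (all genes 24.7%), with a median log2 ratio of 0.14. MCM9, partner of MCM8 in repair, was 1.75-fold higher (1.53 to 2.01), POLE3, a histone-fold subunit of polymerase epsilon, 1.68-fold (1.62 to 1.75), CLSPN, the fork checkpoint mediator claspin, 1.68-fold (1.55 to 1.82) and RNASEH2B, a subunit of ribonuclease H2, 1.42-fold (1.30 to 1.56). The 1 lower gene was POLD4, the small subunit of polymerase delta, named after its value was seen, at 3.93 CPM in scramble and 2.86 in shFTO.

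Regulators of the G1/S step reached larger ratios than the members on the higher side. On the lower side the extremes were close, with lowest log2 ratios of -0.72 and -0.65. Of 27 tested, 14 were at least 1.2-fold higher (51.9%, all genes 23.6%) and 3 lower (all genes 24.7%), with a median log2 ratio of 0.30. At 1.5-fold 9 were higher (all genes 10.4%) and 1 lower (all genes 12.7%). Cyclin D1, CCND1, which activates CDK4 and CDK6 against RB, was 2.78-fold higher (2.73 to 2.84) and CCND3 1.60-fold (1.41 to 1.82). The inhibitor CDKN1A was 1.96-fold higher (1.88 to 2.04), as was E2F7, a repressor of E2F targets, by 1.79-fold (1.62 to 1.98). The lower genes were SKP2, which marks CDK inhibitors for degradation, at 1.65-fold (1.53 to 1.77), CDKN2C at 1.37-fold (1.26 to 1.48) and cyclin A2, CCNA2, at 1.24-fold (1.19 to 1.29). Gene ratios therefore pointed both ways among activators and among inhibitors of S phase entry.

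Mitosis genes did not share the shift of the replication genes. Of 30, 2 were at least 1.2-fold higher (6.67%, all genes 23.6%) and 12 lower (all genes 24.7%), with a median log2 ratio of -0.17 against 0.23 for the replication members. TOP2A is also in the list of other replication genes, and without it the median of the remaining 29 was -0.18. The mitotic kinase NEK2 was 1.57-fold lower (1.47 to 1.68), the kinetochore gene NUF2 1.45-fold (1.36 to 1.54), AURKA 1.43-fold (1.39 to 1.47) and the checkpoint kinase TTK 1.40-fold (1.28 to 1.53), while CENPF was 1.39-fold higher (1.34 to 1.43) and MKI67 1.32-fold (1.28 to 1.35). With plain library size the mitosis median was -0.00 and that of the members 0.40. The distance between the medians, 0.40 on the log2 scale, is the same under all 4 scalings because a scaling moves every gene by the same amount, and it has no test.

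**Figure D4:**
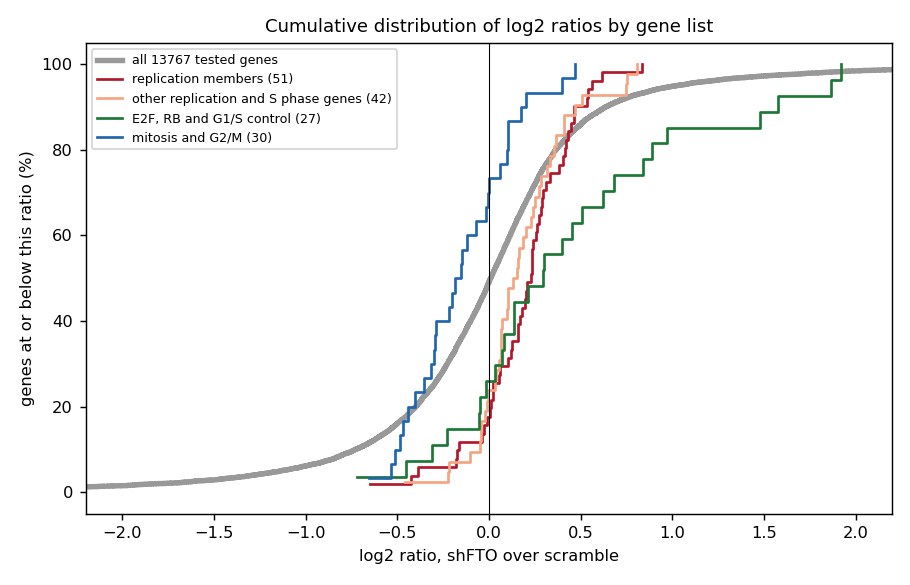
Cumulative share of genes (y axis, percent) at or below each log2 ratio of shFTO over scramble (x axis, TMM scaling) for all 13767 tested genes and 4 lists. The replication members, with a median of 0.23, run to the right of the mitosis genes, with a median of -0.17, which with plain library size are 0.40 and -0.00.

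The complexes ranged widely in median log2 ratio. A scaling moves every gene by the same amount, so it cannot change their order. The ring had the highest median of the groups, 0.42, then came Okazaki fragment joining at 0.34, the single gene MCM8 at 0.33, helicase activation at 0.31 and polymerases delta and epsilon at 0.28. Deoxynucleotide supply stood at 0.25, the regulators at 0.21, replication protein A at 0.18, origin recognition at 0.13, and the clamp with its loader and the chromatin genes at 0.11 each. Licensing and polymerase alpha-primase came last at -0.04 and -0.06, medians that were 0.13 and 0.11 with plain library size. With 1 to 7 genes in a group these medians describe the named genes only.

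**Figure D5:**
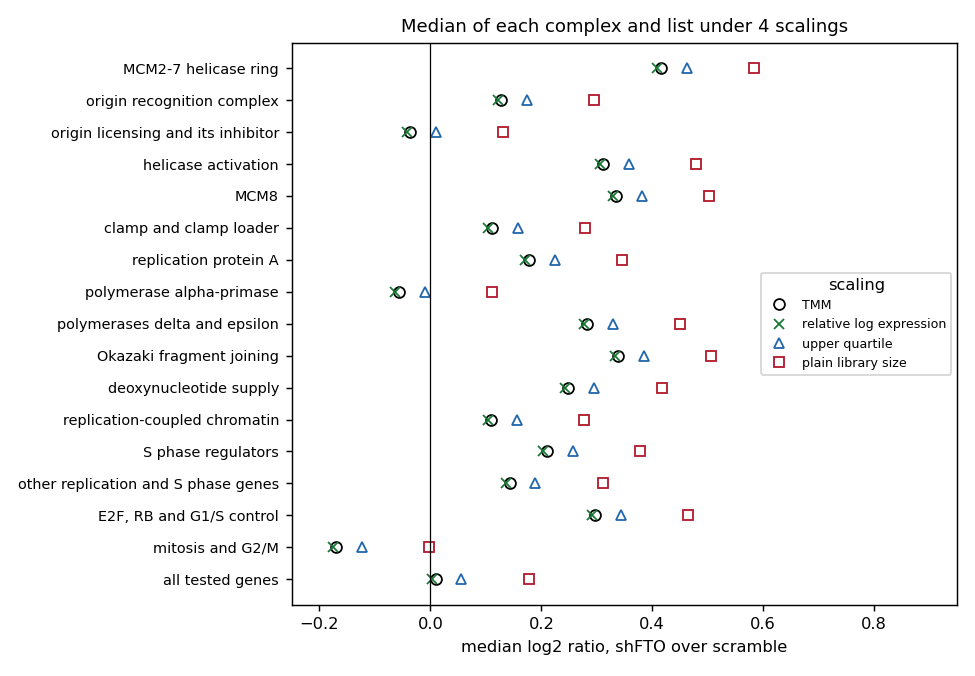
Median log2 ratio of shFTO over scramble for each complex, each further list and all tested genes, with 1 symbol for each of 4 scalings. Plain library size lies 0.17 to the right of TMM in every line, so that licensing (-0.04 and 0.13) and polymerase alpha-primase (-0.06 and 0.11) change sign.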

How the data were processed

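Total RNA was sequenced from scramble and shFTO Hep-G2 cells, with 2 tables per group. Each deposited table holds unnormalised counts of reads for Ensembl identifiers. TopHat2 2.1.1, HTSeq 0.6.0 and the build hg19 are named in the submitters' processing notes. The sources used here give no annotation release and no strand setting. Without strand, reads of genes that overlap on opposite strands cannot be told apart, and no strand setting separates same-strand overlaps. This may touch members that share at least 5% of their exon bases with another gene in GENCODE v29. These are TYMS, MCM2, GINS4, GINS3, CDK2, MCM7, RFC5, FEN1 and PRIM1 on the opposite strand, and POLA2, RRM2, PRIM1 and POLD1 on the same strand. The partners of MCM2, GINS3, POLA2 and RRM2 and the same-strand partner of PRIM1 had no identifier among those counted. Those of CDK2 and POLD1 had no read in any run.

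Symbols came from GENCODE v29 (GRCh38) by identifier, for 51537 of 62893 identifiers, and promoter sequences from RefSeq (GRCh38.p14). Level per length used the longest principal transcript in GENCODE v29. The fit was edgeR 4.0.16 (R 4.3.3), quasi-likelihood, TMM, filterByExpr, no covariate, two-sided, adjusted p under 0.05, on all 4 tables. It had 2 residual degrees of freedom and a common dispersion of 9.77e-05, so no p of a single gene is given. Folds are ratios of pooled TMM-scaled CPM. Runs were compared over genes with a mean of at least 20 reads over the pair. The fit and intervals were tested on simulated data. The members and lists were chosen with earlier results of these data known. Named genes were FTO, the members, and per further list up to 4 genes each way past 1.2-fold with the largest fold and a mean of at least 5 CPM. Alternatives were other scalings and filters, DESeq2 1.42.0, the replicate block, leaving out each run, other folds, and subtraction of trends with length, GC and level (mgcv 1.9.3). Replicate numbers come from the titles, which do not say that a number marks a shared culture or day.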

Additional observations from a re-analysis of the deposited data

How the results depend on the processing

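With 1 sample per group the spread between cultures is unknown, and low counts limit CDC7 and POLE2 most. Members called higher by edgeR stayed between 28 (DESeq2) and 45 (plain library size, 48.7% of all genes) around 35 (33.2%). Members called lower numbered 6 (33.4% of all genes), or 5 with upper quartile scaling (30.1%) and with DESeq2, and 3 with plain library size (22.1%). For DESeq2 no share of all genes is given here. With the replicate block the counts were 35 and 6 (33.5% of all genes each way), and the numbers did not pair the runs (correlation of deviations 0.00405 for like numbers). Members at least 1.2-fold higher numbered 19, but 26 with upper quartile scaling (27.3% of all genes), 36 with plain library size and 29 after trends with length, GC and level were subtracted (25.5% of all genes), when 2 were lower (22.6%). At 1.1-fold 33 were higher (31.5% of all genes) and 6 lower (31.8%), and at 1.5-fold 2 higher (10.4%) and 1 lower (12.7%). With plain library size 37.9% of all genes were at least 1.2-fold higher, and 1 member was at least 1.2-fold lower (16.1% of all genes). Leaving out each run gave 18 to 20 higher (21.6% to 22.4% of all genes) and 3 lower (23.7% to 23.8%). By edgeR it gave 31 to 33 called higher (28.9% to 30% of all genes) and 5 to 6 lower (29.8% to 30.5%).

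The median log2 ratio of 0.23 was 0.2767 with upper quartile scaling, 0.3978 with plain library size, 0.2175 with no low count filter, 0.2372 with a mean of at least 5 CPM, 0.2703 with trends removed, and 0.204 to 0.2339 when each run was left out. Log2 ratios near 0 changed sign for some members that edgeR did not call, and for GMNN, which it called lower. With upper quartile scaling CDT1 became 0.0106, RFC4 0.0376 and E2F1 0.0202. With plain library size CDT1 became 0.1317, GMNN 0.0068, RFC4 0.1587 and E2F1 0.1413. With relative log expression RRM2 became -0.0018. Without the count filter POLD1 became -0.0018 and RRM2 -0.0082. Over the 4 fits that each left out a run, the log2 ratio ran from -0.065 to 0.0991 for CDC45, from -0.0532 to 0.0255 for RFC4, from -0.0021 to 0.0164 for POLD1, from -0.0017 to 0.0034 for RRM2, from -0.0294 to 0.0622 for CHAF1B and from -0.0623 to 0.0016 for E2F1. A change of scaling moved the log2 ratio of every gene by the same amount, 0.1678 for plain library size against TMM. Why the scalings differed was not tested.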

Other observations

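Across the 51 members the log2 ratio had a Spearman correlation of 0.28 with transcript length, 0.22 with GC content and -0.07 with the level per kilobase in scramble. Over 11978 tested protein-coding genes the same values were 0.17, 0.01 and -0.26. All points share the same libraries, and genes are not independent replicates.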
